A study of Mus musculus with 45 samples.

Results

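Mouse brain tumours driven by one mutant form of the PDGF receptor alpha, Pdgfra C450 ins, were compared with tumours driven by another, Pdgfra V544ins. The samples were chosen by the genotype and the number in the sample title: 5 arrays of genotype C450 ins, titles 26 to 30, and 3 arrays of genotype V544ins, titles 6, 8 and 10, so that 8 of the 45 arrays of the series are described. Both groups were on a p53-null background in the CD-1 nude strain, were labelled as a glioblastoma model with mouse brain as the source, and were measured on 3′ expression arrays from 100 ng of total RNA. According to the series' design, mutant receptors were carried by retrovirus into primary mouse astrocytes that lacked p53. No array of untransformed brain or of a control vector is among the 8. A further 6 V544ins arrays had titles between 49 and 62; they are set beside the comparison as a description. Nude mice lack a thymus and so most T cells, and the labels give neither the animal's age nor whether a group came from 1 transduced culture or several.

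PDGFRA is a receptor tyrosine kinase that pairs with a second receptor when PDGF binds, and then signals through the RAS-ERK, PI3K-AKT and STAT pathways. In the brain it marks oligodendrocyte progenitors, the dividing glial cells that many high-grade gliomas resemble. Residue C450 lies in the part of the receptor outside the cell and V544 in the segment that crosses the membrane, so the comparison sets insertions in different regions of the same receptor against each other.

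Values are log2 signals, on which a difference of 1 is a doubling, and differences are C450 ins minus V544ins with their standard error (SE). C450 ins replicates 1 to 5 carry titles 26, 28, 30, 27 and 29, and V544ins replicates 1 to 3 carry titles 10, 8 and 6. Nothing in the labels says that the arrays of a group came from separate animals. The p-values below speak only to a spread within groups, estimated over all 45 arrays in 10 groups. That spread may be technical. Over 11809 genes kept, the median difference was 0.0832, with 6764 differences above 0 and 5045 below. A gene was called where limma's Benjamini-Hochberg adjusted p was under 0.05, and 7 genes were, which is 0.0593% of those tested. All 7 were lower in C450 ins tumours, and 0 were called higher (0% of genes tested). At an unadjusted p under 0.05 there were 987 higher genes (8.36%) and 975 lower genes (8.26%).

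The 8 arrays were not alike within the C450 ins group. A principal component analysis was made of these 8 arrays alone, and its first component held 58.5% of the variance. On it C450 ins replicates 1 to 5 lay at -38.5, 7.68, 13.6, 74.3 and 80.8. V544ins replicates 1 to 3 lay at -52.8, -51.3 and -33.8. C450 ins replicate 1 therefore lay among the V544ins arrays. Its correlation over genes was 0.917 to 0.960 with the V544ins arrays and 0.809 to 0.922 with the rest of its own group. C450 ins replicates 2 and 3 were the closest pair of the group, at 0.982, and no 2 of the 45 arrays held identical values. The 3′ minus 5′ signal of Actb, a measure of RNA integrity, was 0.428 to 0.713 in C450 ins arrays and 0.660 to 0.682 in V544ins arrays, and that of Gapdh was 0.141 to 0.252 in C450 ins arrays and -0.0297 to 0.133 in V544ins arrays.

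Spink8, Rgs14, Crym, Adra2c, Ankrd63 and Ppp1r2 fell in C450 ins tumours. In bulk RNA of this kind, fewer cells of a type and less RNA per cell cannot be told apart. Spink8, a serine protease inhibitor gene known from hippocampal pyramidal neurons, had log2 signals of 3.06, 2.97, 3.07, 2.83 and 2.99 in C450 ins replicates 1 to 5, against 6.09, 5.58 and 7.10 in V544ins replicates 1 to 3. All 5 C450 ins arrays were near the low end of the scale and the groups did not overlap, as was so for 5.46% of all genes on the lower side. The difference was -3.27 ± 0.43 on the log2 scale (SE; limma, adjusted p = 4.61e-05), and since all C450 ins values were below the table median of 4.79 no fold is given. Rgs14, a regulator of G protein signalling enriched in hippocampal area CA2, measured 6.33, 4.67, 4.80, 4.22 and 3.68 in C450 ins arrays and 7.75, 7.88 and 7.36 in V544ins arrays. Its groups were also apart, with C450 ins replicate 1 closest to the V544ins arrays, and it fell by 2.92 ± 0.54 (SE; limma, adjusted p = 0.0204).

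Crym, which encodes a thyroid hormone binding protein abundant in the striatum, had 8.57, 5.19, 5.41, 4.53 and 5.39 in C450 ins arrays and 10.72, 10.33 and 9.21 in V544ins arrays. C450 ins replicate 1 stood well above the other 4 of its group and still below every V544ins array. The difference was -4.27 ± 0.90 (SE; limma, adjusted p = 0.0495). Adra2c, the alpha-2C adrenergic receptor found on striatal neurons, measured 4.85, 3.59, 3.65, 3.70 and 3.39 in C450 ins arrays, against 6.82, 7.0 and 5.22 in V544ins arrays. It fell by 2.51 ± 0.48 (SE; limma, adjusted p = 0.0204), and C450 ins replicate 1 was again the highest of its group while V544ins replicate 3 was the lowest of the other.

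Ankrd63, an ankyrin repeat gene, had 3.91, 3.09, 3.73, 3.33 and 3.23 in C450 ins arrays and 8.84, 9.62 and 5.0 in V544ins arrays. The V544ins arrays were far from each other, and replicate 3, at 5.0, was nearest to the highest C450 ins array, at 3.91. The difference of -4.37 ± 0.84 (SE) was the largest of the called genes (limma, adjusted p = 0.0204). Ppp1r2, an inhibitory subunit of protein phosphatase 1, measured 9.59, 9.79, 9.72, 8.71 and 9.34 in C450 ins arrays and 10.99, 11.33 and 10.13 in V544ins arrays. It fell by 1.39 ± 0.29 (SE; limma, adjusted p = 0.0495), the smallest of the called differences. The remaining called gene was the predicted gene Gm32960, at -1.60 (limma, adjusted p = 0.0207), which the naming rule passed over and which is named here because of its call.

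**Figure D1:**
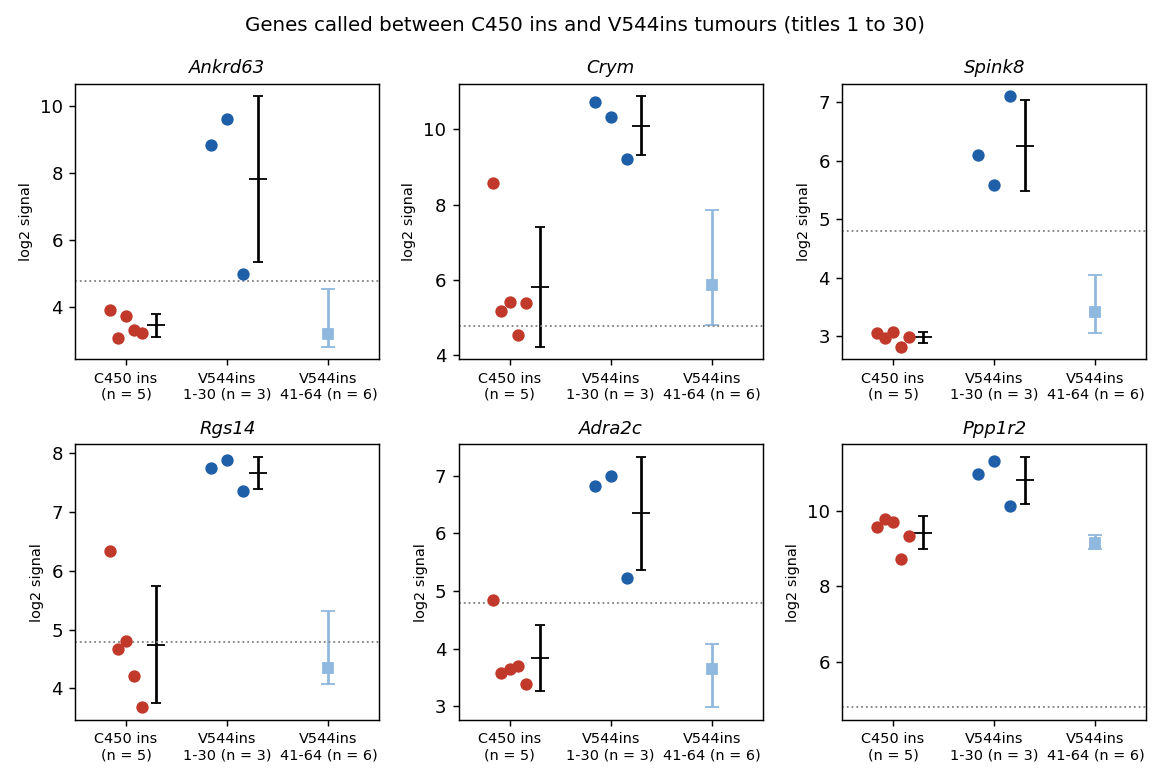
Log2 signal of the 6 called genes with established names, 1 panel a gene, for 5 C450 ins arrays (red), 3 V544ins arrays with titles 6, 8 and 10 (blue) and 6 V544ins arrays with titles between 49 and 62 (light blue square at the median, bars to the lowest and highest array). Black marks are the mean with the SD of the group to their left and the dotted line is the table median of 4.79; in each panel all C450 ins arrays lie below the 3 V544ins arrays in blue, and so do the other 6 V544ins arrays.

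These calls rest on a small number of arrays and changed with them. With 1 array left out at a time, Spink8 kept its call in 8 of 8 fits, with differences from -3.61 to -2.85. The other 5 named called genes kept it in 2 or 3 of 8. The number of called genes was 89 without C450 ins replicate 1 (7 higher, 82 lower), 103 without V544ins replicate 3 (12 higher, 91 lower), 6 without C450 ins replicate 2 and 1 without any one of the other arrays.

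All 6 V544ins arrays of the upper title range lay below the 3 V544ins arrays of the comparison in all 7 called genes. Spink8, for instance, ran from 3.05 through a median of 3.42 to 4.04 in those 6 arrays, and Ankrd63 from 2.83 through 3.20 to 4.53. By their medians, the upper-range V544ins arrays were nearer to the C450 ins mean than to the mean of the 3 V544ins arrays compared in the 6 genes with established names. When all 9 V544ins arrays were used, 0 genes were called by limma (351 at an unadjusted p under 0.05), and 0 were called with the title range as a block (421 at an unadjusted p under 0.05).

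The lower genes next in order of p did not pass the threshold. Drd1, the dopamine D1 receptor of striatal projection neurons, measured 5.36, 4.04, 4.04, 4.11 and 3.55 in C450 ins arrays and 9.11, 10.03 and 5.82 in V544ins arrays, a difference of -4.10 ± 0.90 (SE; limma, adjusted p = 0.0594). Its groups did not overlap, although V544ins replicate 3 was within 0.5 of the highest C450 ins array. Hrk, a BH3-only activator of cell death expressed in neurons, differed by -2.21 ± 0.47 (limma, adjusted p = 0.0568). Sh3rf2, an SH3 and RING domain protein, differed by -2.58, Ryr1, a calcium release channel, by -1.87, Asb11 by -2.24 and Osbpl8, an oxysterol binding protein family member, by -1.12, with adjusted p from 0.0568 to 0.0617 by limma. In 11 of the 12 lower genes named, the 6 upper-range V544ins arrays lay below all 3 lower-range V544ins arrays.

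Of 16 genes listed as markers of striatum, cortex or cerebellum, 9 were measured and 0 were called, against 0.0593% of all genes called lower. At an unadjusted p under 0.05, 5 of the 9 were lower, against 8.26% of all genes, and 0 higher. The median difference of the 9 was -3.23. The 5 were the striatal genes Drd1, Ppp1r1b, Penk, Drd2 and Tac1, the last named after its values were seen. Tbr1, Neurod6, Calb1 and Neurod1, the other members measured, did not reach that threshold. Their differences were -1.66, -1.97, -1.64 and 0.09. Penk, the enkephalin precursor of striatal neurons, had 7.19, 5.57, 7.23, 5.23 and 6.12 in C450 ins arrays and 11.81, 12.49 and 8.28 in V544ins arrays (difference -4.59 ± 1.37 SE; limma, adjusted p = 0.17). The groups were apart, with V544ins replicate 3 near C450 ins replicates 1 and 3. Ppp1r1b, which encodes DARPP-32, the phosphatase regulator of dopamine-responsive neurons, had 7.83, 4.58, 4.84, 3.83 and 3.84 in C450 ins arrays, against 10.17, 11.41 and 6.94 in V544ins arrays. Here C450 ins replicate 1 lay above V544ins replicate 3, so the groups overlapped (difference -4.52 ± 1.16 SE; limma, adjusted p = 0.114). Drd2, the dopamine D2 receptor, measured 2.88, 3.57, 3.61, 3.13 and 5.70 in C450 ins arrays and 8.01, 9.29 and 3.72 in V544ins arrays, with V544ins replicate 3 inside the C450 ins range.

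The general neuronal list overlapped between the groups. Of 20 genes, 18 were measured, 0 were called, against 0.0593% of all genes called lower, 6 were lower at an unadjusted p under 0.05, against 8.26% of all genes, and the median difference was -2.12. The mean of the list was 10.20, 9.05, 9.11, 5.86 and 5.73 in C450 ins replicates 1 to 5 and 10.32, 9.67 and 10.16 in V544ins replicates 1 to 3. C450 ins replicate 1 was thus inside the V544ins range, replicates 2 and 3 were a little below it and replicates 4 and 5 were far below. Camk2a, a calcium-dependent kinase of excitatory neurons, was also lowest in C450 ins replicates 4 and 5, with 11.61, 9.51, 9.16, 5.59 and 5.72 in C450 ins arrays and 11.87, 11.76 and 11.83 in V544ins arrays (limma, adjusted p = 0.255). Slc32a1, the transporter that loads GABA into synaptic vesicles, measured 7.27, 4.84, 6.81, 3.80 and 3.31, against 10.24, 9.49 and 7.16 in V544ins arrays (difference -3.76 ± 1.0 SE; limma, adjusted p = 0.119). Nrgn, a calmodulin-binding postsynaptic protein of forebrain neurons, was 10.29 in C450 ins replicate 1 and 4.69 to 5.52 in replicates 2 to 5, against 8.96, 9.80 and 9.15 in V544ins arrays.

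Among the 8 arrays, both the regional and the general neuronal list were highest in V544ins replicate 1. Both were lowest in C450 ins replicates 4 and 5, but only the regional list separated the groups. C450 ins replicate 1 ranked 6th of 45 arrays in the neuronal list and 13th in the regional list. Replicates 2 to 5 of that group ranked 18th, 17th, 38th and 39th in the neuronal list and 25th, 23rd, 39th and 33rd in the regional list. V544ins replicates 1 to 3 ranked 5th, 11th and 7th in the neuronal list and 1st, 3rd and 10th in the regional list. The mean of the regional list was 6.67, 5.20, 5.50, 4.10 and 4.73 in C450 ins arrays and 8.74, 8.46 and 7.02 in V544ins arrays, with no overlap. Without C450 ins replicates 4 and 5, a setting chosen after seeing the data, the median difference of the neuronal list was -0.41 and that of the regional list -2.98. In that setting 1 gene, Spink8, was called (limma, adjusted p = 0.00165). With the mean of the neuronal and myelin lists as a covariate, Spink8 was again the 1 gene called, at -2.98 (limma, adjusted p = 0.000374).

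**Figure D2:**
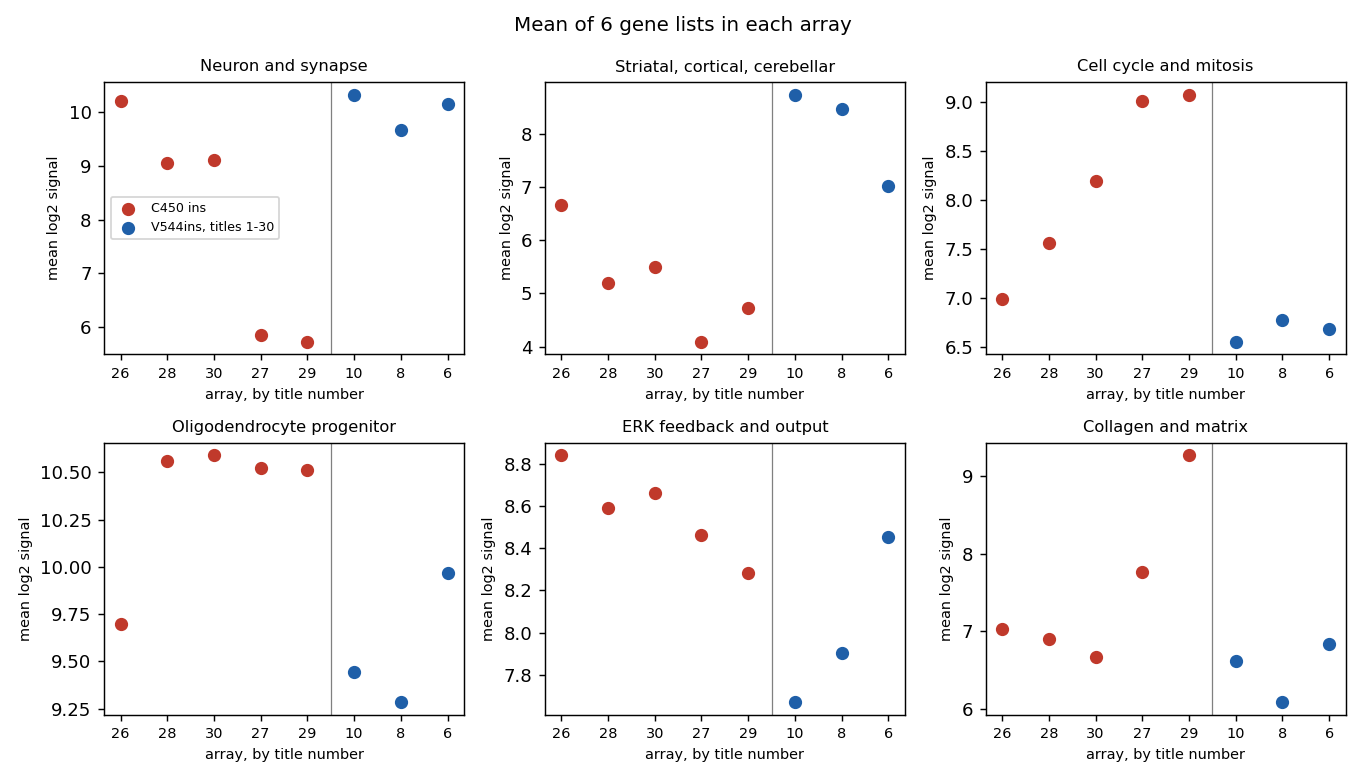
Mean log2 signal of 6 gene lists in each array, named by its title number on the horizontal axis, for C450 ins (red) and V544ins (blue) tumours. The neuronal mean of C450 ins title 26 (10.20) lies among the V544ins arrays and those of titles 27 and 29 (5.86 and 5.73) far below, while the regional and cell cycle means of the groups do not overlap.

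Individual C450 ins arrays carried transcripts of other brain regions. Of the genes named for this, Gh, Pomc, Cga, Pmch, Hcrt, Avp and Ttr were chosen after their values were seen. Prl, the pituitary hormone prolactin, was 13.54 in C450 ins replicate 5 and 9.39 in replicate 3, against 3.09 to 3.95 in replicates 1, 2 and 4 and 3.24, 3.25 and 3.58 in V544ins arrays. The other pituitary hormone transcripts had the same highest array: in C450 ins replicate 5, Gh (growth hormone) was 13.03, Pomc (the precursor of ACTH) 12.23 and Cga (the shared glycoprotein hormone subunit) 10.94, against highest values of 3.67, 4.48 and 3.09 in the 3 V544ins arrays compared. In the 6 upper-range V544ins arrays these transcripts also reached high levels, up to 12.94 for Prl, 12.66 for Gh, 12.59 for Pomc and 10.91 for Cga, so they were not particular to C450 ins tumours. C450 ins replicate 3, where Gh was 7.63 and Pomc 6.07, also carried hypothalamic transcripts. There Pmch, the precursor of melanin-concentrating hormone from the lateral hypothalamus, was 11.16, against 3.03 to 4.48 in the other C450 ins arrays and 4.12, 3.43 and 3.63 in V544ins arrays. Hcrt, the orexin precursor of the same region, was 7.70 in that array and 3.62, 3.96 and 3.78 in V544ins arrays. Avp was 9.42 there, but also 7.97 in C450 ins replicate 4 and 6.97 in V544ins replicate 1. In the other 37 arrays of the series Pmch reached 11.76, Hcrt 8.28 and Avp 10.38, so these too were not particular to C450 ins tumours.

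Of the choroid plexus transcripts, Ttr (transthyretin) at 13.28, Folr1 (a folate receptor) at 7.03 and Clic6 (a chloride channel family protein) at 8.50 were highest in C450 ins replicate 3. In V544ins arrays Ttr was 6.23, 9.23 and 9.21, Folr1 3.04, 3.18 and 3.31, and Clic6 7.85, 7.20 and 3.84. Ttr reached 13.42 in the other 37 arrays of the series. Of 15 hormone genes measured among 20 listed, 0 were called and 3 were lower at an unadjusted p under 0.05, against 8.26% of all genes, with a median difference of 0.14. These 3 were Sst, Npy and Crh, which encode peptides that cortical and striatal interneurons or hypothalamic neurons make. Npy was 11.28, 7.73, 6.64, 7.97 and 5.60 in C450 ins arrays and 10.55, 10.58 and 10.61 in V544ins arrays (limma, adjusted p = 0.255). Of 11 ependymal and choroid plexus genes measured among 14, 0 were called and the median difference was 0.11. At an unadjusted p under 0.05, 1 was higher, a share near the 8.36% of all genes. That gene, the water channel Aqp1, was 5.13, 4.38, 5.17, 5.73 and 7.61 in C450 ins arrays and 3.56, 3.40 and 3.81 in V544ins arrays (limma, adjusted p = 0.287). It was highest in C450 ins replicate 5, and its groups did not overlap, as was so for 7.4% of all genes on the higher side.

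**Figure D3:**
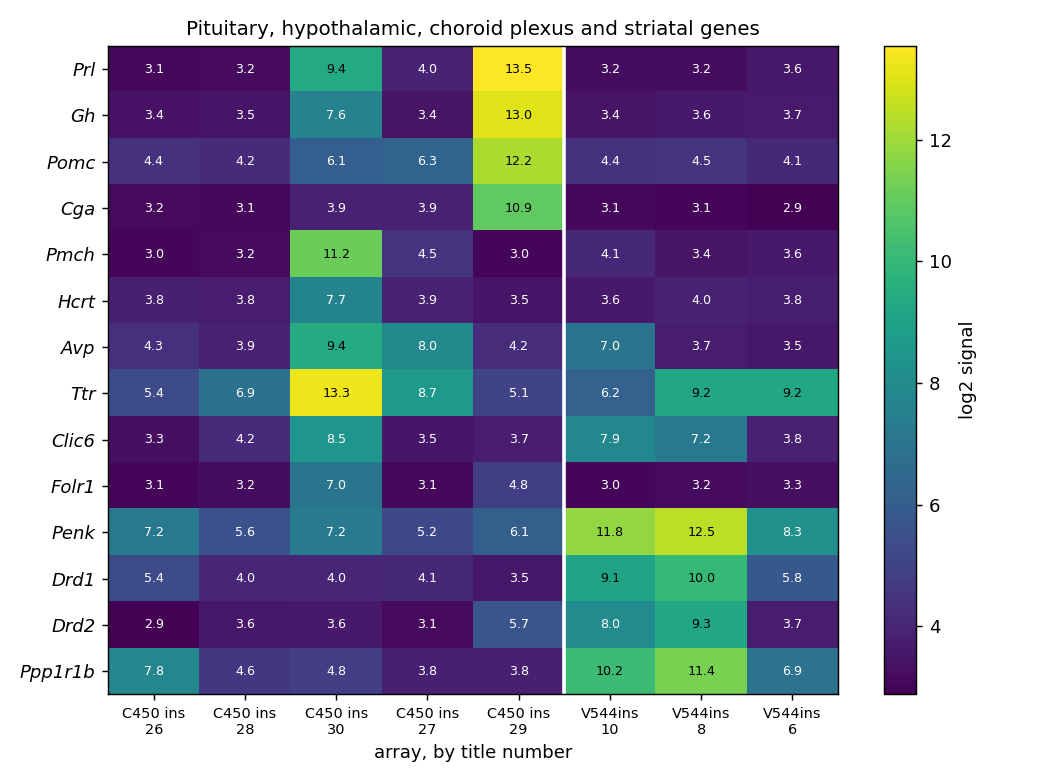
Log2 signal of 14 genes of the pituitary (Prl to Cga), hypothalamus (Pmch to Avp), choroid plexus (Ttr to Folr1) and striatum (Penk to Ppp1r1b) in each array, C450 ins left of the white line and V544ins right of it; colour and number give the same value. Pituitary transcripts are highest in C450 ins title 29, the hypothalamic and choroid plexus transcripts shown in title 30, and striatal transcripts in V544ins titles 10 and 8.

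In the direction of higher signal in C450 ins tumours no gene passed the test. Stt3b, a catalytic subunit of the enzyme that attaches sugar chains to new proteins, came closest, with 11.08, 11.08, 11.10, 11.05 and 11.19 in C450 ins arrays and 10.16, 10.44 and 10.76 in V544ins arrays (difference 0.65 ± 0.15 SE; limma, adjusted p = 0.0617). The C450 ins arrays were almost level and all were above the V544ins arrays. Septin11, a filament-forming GTPase, measured 9.30, 9.37, 9.17, 9.59 and 9.34, against 7.90, 8.01 and 8.46 in V544ins arrays (difference 1.23; limma, adjusted p = 0.096). Plat, which encodes tissue plasminogen activator, measured 9.84, 10.85, 9.71, 9.38 and 9.70, against 7.89, 8.35 and 9.05 in V544ins arrays (difference 1.46 ± 0.40 SE; limma, adjusted p = 0.122). The other 9 genes of smallest p on this side had differences from 0.67 to 1.28. These 9, picked by p in this same comparison, had no overlap between groups, against 7.4% of all genes on the higher side. They were the unconventional myosin Myo19, the heparan sulfate proteoglycan Gpc6, the methyltransferase Carnmt1, the CXXC zinc finger protein Cxxc5, Tex9, the importin Ipo5, the mitochondrial carnitine acyltransferase Cpt1a, the zinc finger gene Zfp768 and the insulin-degrading protease Ide. In 9 of the 12, the 6 upper-range V544ins arrays were all above the 3 V544ins arrays compared.

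Genes of the cell cycle all had positive differences, and 0 of 24 measured (25 listed) were called, as 0% of all genes were called higher. At an unadjusted p under 0.05, 12 of the 24 were higher, against 8.36% of genes kept, and in 13 the groups did not overlap, against 7.4% of genes kept. Their median difference was 1.56, and the range was 0.43 to 1.93. Kif11, the kinesin motor that separates spindle poles, had 4.50, 5.66, 6.28, 7.27 and 7.32 in C450 ins arrays and 4.37, 4.27 and 4.60 in V544ins arrays (difference 1.80 ± 0.63 SE; limma, adjusted p = 0.231). C450 ins replicate 1 was inside the V544ins range and replicates 4 and 5 were highest. Mcm3, a subunit of the replicative helicase, measured 6.14, 6.04, 6.76, 7.58 and 7.29, against 4.74, 4.76 and 5.59 in V544ins arrays (difference 1.73 ± 0.69 SE; limma, adjusted p = 0.263). Aurkb, a mitotic kinase, and Pcna, the sliding clamp of DNA replication, differed by 1.74 and 0.78.

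The mean of the cell cycle list was 6.98, 7.56, 8.19, 9.02 and 9.08 in C450 ins replicates 1 to 5 and 6.55, 6.77 and 6.68 in V544ins replicates 1 to 3. No C450 ins array reached down to the V544ins range, yet the C450 ins arrays differed from each other by more than the lowest of them differed from the V544ins arrays. Across the 8 arrays the list was high where the neuronal list was low, and with the mean of the neuronal and myelin lists as a covariate the difference was 1.16 for Kif11 and 1.02 for Mcm3. With all 9 V544ins arrays it was 0.27 for Kif11, 0.53 for Mcm3, 0.21 for Aurkb and 0.20 for Pcna. Without C450 ins replicates 4 and 5 the median difference was 0.94, and it ran from 1.37 to 1.90 with single arrays left out. Of 7 CDK inhibitors, all measured and 0 called, the median difference was 1.22 and 2 were higher at an unadjusted p under 0.05, against 8.36% of all genes. The 2 were Cdkn2b and Cdkn2c. Cdkn2b was 6.14, 7.46, 7.52, 7.93 and 8.44 in C450 ins arrays and 5.82, 5.74 and 6.23 in V544ins arrays, with overlapping groups. Cdkn2c, an inhibitor of the cyclin D kinases, was 6.57, 7.53, 7.81, 8.36 and 8.73 in C450 ins arrays and 6.29, 6.28 and 6.31 in V544ins arrays. Cdkn2a, the locus of the p16 and ARF proteins, was 8.21, 8.72, 8.52, 10.06 and 8.84, against 7.37, 7.08 and 7.01 in V544ins arrays (difference 1.72; limma, adjusted p = 0.329). These inhibitor genes thus had positive differences alongside the genes of division.

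**Figure D4:**
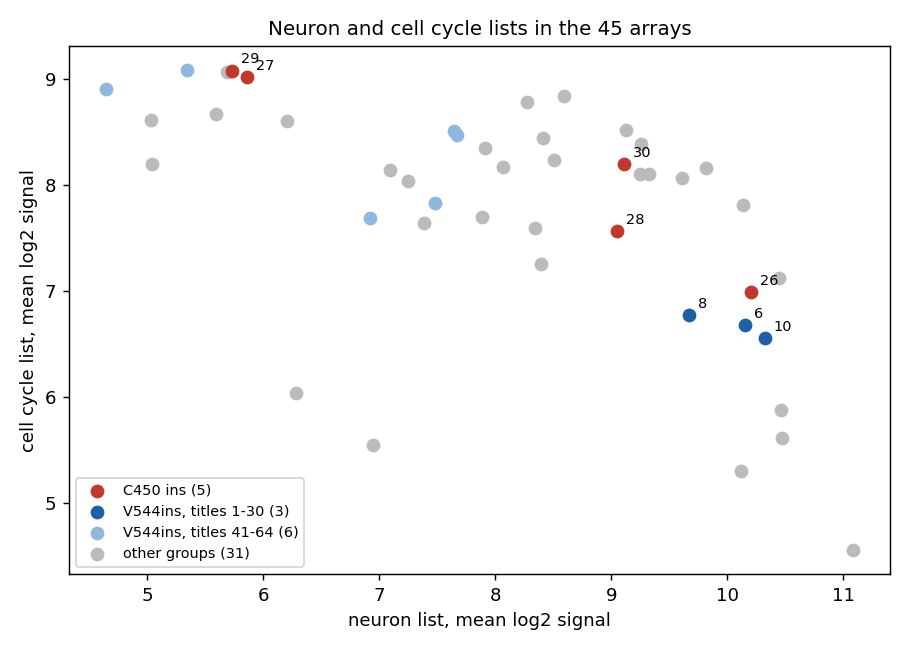
Mean log2 signal of the cell cycle list against that of the neuronal list, 1 point an array, with the 8 arrays compared labelled by title number. C450 ins arrays (red) spread from a neuronal mean of 10.20 and a cell cycle mean of 6.98 to 5.73 and 9.08, while the 3 V544ins arrays compared (dark blue) lie together at cell cycle means of 6.55 to 6.77 and the 6 other V544ins arrays (light blue) lie higher on the vertical axis.

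Promoters of 21 of the 24 cell cycle genes were found in the RefSeq table of promoters (build GRCm38.p6, 250 bases before to 50 after the start of each gene). Those of Kif11 and Mcm3, the list members with the smallest p, are shown because they carry the sequence elements known from cell cycle promoters. The Kif11 window is chr19:37376132-37376431 on the plus strand and the Mcm3 window chr1:20820263-20820562 on the minus strand, and capitals mark matches on either strand to CCAAT, the box bound by NF-Y, to TTTGAA, the core of the cell cycle homology region, and to TTTGGCGC or TTTCGCGC, forms of the E2F site.
Kif11: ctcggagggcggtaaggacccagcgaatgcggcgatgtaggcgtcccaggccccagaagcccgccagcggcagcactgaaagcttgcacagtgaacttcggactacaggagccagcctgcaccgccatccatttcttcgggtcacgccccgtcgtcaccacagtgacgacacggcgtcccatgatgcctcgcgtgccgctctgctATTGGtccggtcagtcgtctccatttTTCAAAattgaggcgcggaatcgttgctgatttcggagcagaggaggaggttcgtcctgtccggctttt
Mcm3: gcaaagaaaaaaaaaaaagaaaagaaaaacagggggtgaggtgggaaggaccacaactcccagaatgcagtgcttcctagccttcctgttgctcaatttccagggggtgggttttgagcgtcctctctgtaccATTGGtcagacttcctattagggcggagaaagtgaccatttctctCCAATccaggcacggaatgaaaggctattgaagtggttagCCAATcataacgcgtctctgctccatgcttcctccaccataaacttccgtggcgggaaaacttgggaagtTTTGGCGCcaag
Kif11 held 1 CCAAT match, read as ATTGG, and 1 TTTGAA match, read as TTCAAA, while Mcm3 held 3 CCAAT matches and 1 E2F match. Over the list, 18 of 21 promoters held CCAAT (85.7%), against 43.1% of the 9530 genes kept that had a promoter. TTTGAA was found in 12 of 21 (57.1%), against 14% of genes kept, and an E2F form in 4 of 21 (19%), against 1.75%. A match is a run of letters in this window and not a measured binding site.

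Pdgfra itself, the gene that the constructs carry, was higher in every C450 ins array without passing the test. Its 1 probe set measured 6.54, 7.33, 7.56, 8.14 and 7.21 in C450 ins arrays and 5.74, 5.49 and 5.93 in V544ins arrays. The means were 7.36 ± 0.58 (SD, n = 5) and 5.72 ± 0.22 (SD, n = 3), and the difference was 1.64 ± 0.85 (SE; limma, adjusted p = 0.318). The labels do not say whether the construct holds the sequence that this probe set reads, so the signal does not tell the introduced receptor from the cells' own. The 6 upper-range V544ins arrays ran from 5.29 through a median of 6.96 to 7.74, across both groups. Of the other receptor and ligands, Pdgfrb, the second receptor of the family, differed by 0.28, Pdgfc by 0.18 and Pdgfd by -0.07, all with overlapping groups. Egfr, a receptor that drives another model of the same series, was 7.53, 7.66, 7.09, 4.24 and 6.63 in C450 ins arrays and 6.62, 6.46 and 6.50 in V544ins arrays. It differed by 0.10, and the sign turned when single arrays were left out.

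Genes induced by ERK signalling, among them inhibitors that damp it, were measured for 19 of 20 listed. None was called. At an unadjusted p under 0.05, 5 were higher and 1 was lower, against 8.36% and 8.26% of genes kept, in 7 the C450 ins arrays were all above the V544ins arrays, against 7.4% of genes kept, and the median difference was 0.63. Etv4, a transcription factor downstream of ERK, had 6.71, 7.22, 7.17, 7.86 and 6.04 in C450 ins arrays and 5.12, 5.58 and 4.03 in V544ins arrays (difference 2.09 ± 0.73 SE; limma, adjusted p = 0.23). Spry4, a Sprouty inhibitor of receptor signalling, had 8.04, 8.15, 8.76, 8.78 and 7.70, against 7.0, 7.06 and 6.92 in V544ins arrays (difference 1.29 ± 0.50 SE; limma, adjusted p = 0.255). Unlike the cell cycle genes, both had C450 ins replicate 5 as the lowest array of the group. Dusp6, the phosphatase that inactivates ERK, measured 9.69, 10.02, 10.49, 9.71 and 9.90, against 8.31, 9.06 and 9.89, so that V544ins replicate 3 overlapped. The other 2 higher genes, named after their values were seen, were Spry1, at 8.99, 8.87, 9.44, 9.12 and 8.56 in C450 ins arrays and 7.55, 7.41 and 7.60 in V544ins arrays, and Spred1. Epha4, the 1 lower gene, is an ephrin receptor that neurons also express, and it was 9.19, 8.75, 8.11, 5.23 and 5.33 in C450 ins arrays and 9.18, 9.90 and 10.08 in V544ins arrays. Without C450 ins replicates 4 and 5 the median of this list was 0.66.

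Oligodendrocyte progenitor genes, the lineage that PDGFRA marks, were measured for 15 of 18. None was called, 0 had an unadjusted p under 0.05, and 14 differences were above 0 with a median of 0.88. The mean of the list was 9.70, 10.56, 10.59, 10.52 and 10.51 in C450 ins arrays and 9.44, 9.28 and 9.97 in V544ins arrays. C450 ins replicates 2 to 5 were close together, and replicate 1 lay among the V544ins arrays. Sox10, a transcription factor of the lineage, was 10.28, 10.88, 10.93, 11.55 and 11.23 in C450 ins arrays and 10.36, 9.33 and 9.91 in V544ins arrays. Vcan, a matrix proteoglycan, had a C450 ins range of 10.05 to 11.54 and V544ins values of 10.15, 9.63 and 10.40 (limma, adjusted p = 0.463). Among 14 of 18 myelin genes measured the median difference was -0.03, with 0 called. Among 17 of 18 genes of astrocytes and radial glia, with 0 called, it was -0.05. This list was split, with 8 differences above 0 and 9 below. All C450 ins arrays were above the V544ins arrays in 3 of its genes, against 7.4% of genes kept. All were below in 1, against 5.46%. Gja1, the gap junction protein of astrocytes, was 11.40, 11.83, 11.19, 8.49 and 9.68 in C450 ins arrays and 11.78, 11.53 and 11.62 in V544ins arrays, with C450 ins replicates 4 and 5 again apart.

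Notch genes, matrix genes and transcription factors of mesenchymal transition also had positive medians and 0 calls, and their counts at an unadjusted p under 0.05 stand against 8.36% of genes kept on the higher side. In the Notch list, 2 of 11 measured (13 listed) were higher at an unadjusted p under 0.05 and the median was 0.66. Hes1, a Notch-induced repressor, was 6.26, 6.04, 6.39, 6.46 and 6.19 in C450 ins arrays and 5.27, 4.97 and 5.70 in V544ins arrays (difference 0.95 ± 0.35 SE; limma, adjusted p = 0.238), with level values in C450 ins and no overlap. Of 20 matrix genes measured among 24, 3 were higher at an unadjusted p under 0.05, and the median was 1.09, or 0.67 without C450 ins replicate 5. Tnc, which encodes the glioma matrix protein tenascin C, measured 8.77, 8.31, 8.42, 9.03 and 9.10, against 5.87, 6.24 and 8.12 in V544ins arrays (difference 1.99 ± 0.89 SE; limma, adjusted p = 0.278). Mmp14, a membrane-bound collagenase, measured 6.61, 6.98, 6.29, 6.62 and 7.70, against 5.51, 5.41 and 5.63 in V544ins arrays. Both genes separated the groups, with V544ins replicate 3 close to C450 ins for Tnc only. Among 8 of 12 transcription factors measured, 2 were higher at an unadjusted p under 0.05 and the median was 0.67. Meox1, a homeobox gene of mesoderm, had 7.83, 8.08, 8.99, 8.86 and 6.90 in C450 ins arrays and 5.78, 6.07 and 5.76 in V544ins arrays (difference 2.26 ± 0.85 SE; limma, adjusted p = 0.251). Twist1, a factor of epithelial to mesenchymal transition, had 4.90, 4.73, 3.96, 4.01 and 5.23, against 3.36, 2.84 and 3.09.

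**Figure D5:**
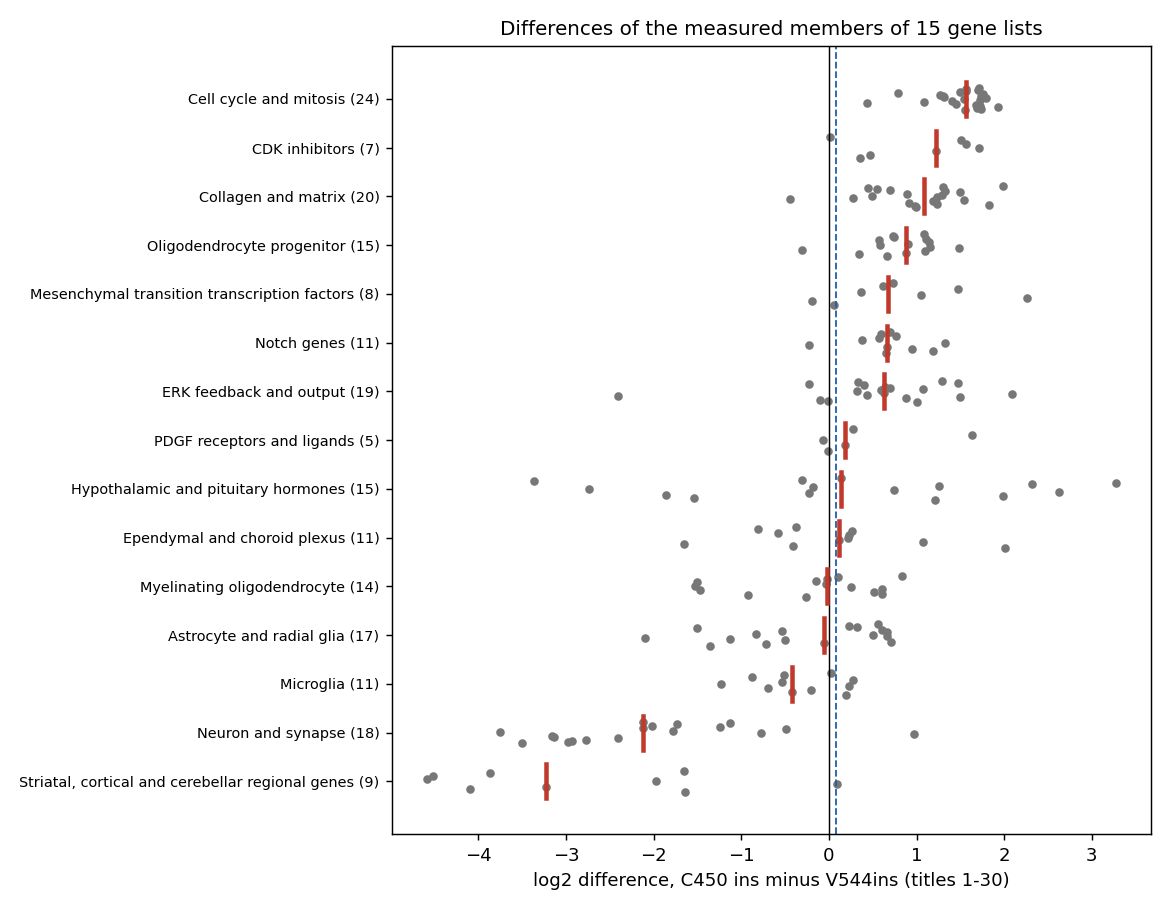
Log2 difference, C450 ins minus V544ins, of each measured member (grey point) of 15 gene lists, with the number measured in brackets and the list's median as a red bar. The solid line is 0 and the dashed line the median of all genes kept, 0.0832; list medians run from -3.23 for the regional genes to 1.56 for the cell cycle genes, and no point is a called gene.

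Microglial genes had a median difference of -0.42 over 11 of 13 measured, with 0 called and 0 at an unadjusted p under 0.05. Of the 11 differences, 7 were below 0 and 4 above. The 4, named after their values were seen, were Sall1 at 0.28, Olfml3 at 0.23, Aif1 at 0.20 and Trem2 at 0.03. In 3 of the 11 all C450 ins arrays were below the V544ins arrays, against 5.46% of genes kept: Selplg, a ligand for selectins, P2ry13, a purinergic receptor, and Csf1r, the receptor of the growth factor CSF1, the last named after its values were seen. The mean of the list was 6.48, 7.15, 7.27, 7.07 and 7.10 in C450 ins arrays and 7.29, 7.43 and 7.34 in V544ins arrays, without overlap. P2ry12, the purinergic receptor of resting microglia, was 4.83, 7.94, 8.04, 5.72 and 6.45 in C450 ins arrays and 6.18, 8.81 and 8.50 in V544ins arrays, which overlapped.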

How the data were processed

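RNA of 45 mouse brain tumour samples was measured on Affymetrix 3′ arrays. The deposited values are log2 signals per probe set, made by the authors with RMA per the submitters' processing notes; its version and settings are not given in the sources used here. RMA normalises arrays to a common distribution, which removes a shift shared by all genes. Precision is limited by how many arrays a group has.

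Of 45141 probe sets, 28898 had 1 gene symbol, 551 several and 15692 none. Each of 17097 genes was represented by its brightest probe set on average, and stayed in the test if 3 or more arrays exceeded 4.79, the median of the table. Samples were grouped by genotype, with V544ins and E10 del.v2 split by title range (1 to 30 and 41 to 64), which the labels do not call batches. A model with 10 group means was fitted (limma 3.58.1, R 4.3.3), and C450 ins minus V544ins was tested two-sided with Benjamini-Hochberg adjustment over genes kept. The procedure was tested on simulated data.

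Genes to name were, per direction, up to 12 called ones by size of difference, filled up by smallest p, without predicted genes, and up to 4 members of smallest p of each list described. The 37 lists held 547 entries, 424 of them kept, and were described by counts and medians. Members and lists were chosen with earlier results of these data known. Promoters came from RefSeq tables. Alternatives were other sets of arrays, filters, probe set rules, scalings, array weights, covariates made from the neuronal and myelin lists and leaving out arrays. Trp53 was not analysed here.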

Additional observations from a re-analysis of the deposited data

Results flagged for a closer look

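In 15 of 103 values tested (named genes and list means), 1 of the 5 C450 ins arrays stood far from the other 4, by Dixon's gap test. For independent values chance gives about 1 in 20. The 103 values were not independent, as all came from the same 5 arrays and list means held some of the named genes. The count therefore cannot be read as an excess over chance. Of the 15, 11 concerned C450 ins replicate 1. In that array Crym was 8.57 (others 4.53 to 5.41), Adra2c 4.85 (3.39 to 3.70), Ryr1 4.18 (3.09 to 3.25), Asb11 3.90 (2.77 to 3.04), Nrgn 10.29 (4.69 to 5.52) and Ppp1r1b 7.83 (3.83 to 4.84), all above the others. In the same array Vcan was 10.05 (11.24 to 11.54) and Lhfpl3 9.73 (10.90 to 11.30), below the others, as were the means of the Notch list at 6.38 (7.14 to 7.32), the oligodendrocyte progenitor list at 9.70 (10.51 to 10.59) and the microglial list at 6.48 (7.07 to 7.27).

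C450 ins replicate 3 had Clic6 at 8.50 (others 3.32 to 4.18) and a mean of the ependymal and choroid plexus list of 7.01 (4.16 to 4.50). Tcf4 was 10.93 in C450 ins replicate 4 (10.69 to 10.73), and Drd2 was 5.70 in C450 ins replicate 5 (2.88 to 3.61).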

How the results depend on the processing

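Against 7 genes called, limma called 1 in the 8 arrays alone (2431 at an unadjusted p under 0.05), 0 in the arrays with titles 1 to 30 (2442), 0 with all 9 V544ins arrays (351) and 0 with these and the title range as a block (421). It called 3 with a filter of 9 arrays and 23 with each gene's probe sets averaged (5 of them shared with the 7). With the mean of the neuronal and myelin lists as a covariate it called 1. With array weights it called 3844 (2408 higher, 1436 lower), where weights ran from 0.147 to 9.64 over the 45 arrays and C450 ins replicate 3 had 9.15. The cause was not tested. Settings chosen after seeing the data gave 1 without C450 ins replicates 4 and 5 and 2 with the neuronal list as a covariate. Leaving out single arrays gave 1 to 103. With no filter 7 were called, 5 of them shared with the 7. The same 7 were called with quantile normalisation, with a trended robust prior and with a difference of at least 1. With arrays centred 5 were called. No paired analysis was possible because the labels give the arrays no shared replicate numbers.

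Of 1924 pairs of named gene and setting, 23 changed sign, none of a called gene. Pdgfrb was -0.15 with array weights and -0.23 without C450 ins replicates 4 and 5. It was -0.0378 with the mean of the neuronal and myelin lists as a covariate and -0.0336 with the neuronal covariate. Pdgfd was 0.50, 0.0095, 0.0963 and 0.0697 with array weights, the title range block, those replicates left out and the neuronal covariate. With all 9 V544ins arrays Gjb6 was 0.17, Gja1 0.24, Sst 0.39, Npy 0.55, Clic6 0.35, Tmem212 0.16 and Xist 0.15, and with array weights Clic6 was 0.35 and Tmem212 0.11. With single arrays left out Pdgfc ran from -0.011 to 0.34, Pdgfd from -0.25 to 0.19 and Egfr from -0.15 to 0.70.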

Other observations

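Lists not described above also held 0 called genes. Of 16 genes of cholesterol and fatty acid synthesis measured among 20, 3 were higher in C450 ins tumours at an unadjusted p under 0.05. Over all genes kept 8.36% were, and the median difference of the list was 0.39. Hmgcs1, an early enzyme of the pathway, was 5.58, 5.21, 5.42, 5.17 and 5.27 in C450 ins arrays and 4.45, 4.62 and 4.79 in V544ins arrays. Its groups did not overlap, as was so for 7.4% of all genes on the higher side. Of 6 genes of pericytes and smooth muscle measured among 12, all had differences above 0, with a median of 0.68; Acta2, smooth muscle actin, was 9.08, 8.42, 8.24, 8.35 and 9.84 in C450 ins arrays and 7.84, 7.28 and 7.74 in V544ins arrays (limma, adjusted p = 0.394). Inflammatory chemokines and cytokines had a median of 0.36 over 16 genes, and their mean was highest in C450 ins replicate 1 (7.33) and V544ins replicate 3 (7.30), against 5.06 to 5.62 in the other C450 ins arrays and 4.62 and 4.58 in the other V544ins arrays. Interferon response genes had a median of -0.29 over 15 genes. Of 17 lymphocyte genes, 2 were kept.

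The Y-linked transcripts also varied within both groups: Eif2s3y, a translation factor subunit, was 5.17, 7.79, 7.66, 7.66 and 8.74 in C450 ins arrays and 4.48, 6.53 and 6.72 in V544ins arrays, while Xist, the RNA of the inactive X chromosome, was 9.71 to 12.05 and 11.79 to 11.92. Arrays with both signals occurred in both groups. Their differences were 1.49 and -0.66 (limma, adjusted p = 0.582 and 0.41).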
